A study of Mus musculus with 6 samples.

Results

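The genes described here drive DNA replication and cell division. They form a list of 36 genes: 13 that act in S phase (Mcm2 to Mcm7, Pcna, Rrm2, Tyms, Ccne1, Ccne2, E2f1 and E2f2) and 23 that act in G2 and mitosis. Each gene was read from a probe set paired with that gene alone, and from the brightest of its probe sets on average over the arrays where it had more than 1. All 13 S phase genes and 22 of the mitotic genes were measured, which is 35 genes among 19938 symbols and 23410 tested probe sets. Ccnb1, which encodes cyclin B1, had no probe set paired with it alone and was not analysed here.

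Whole corneas were taken from mouse pups at postnatal day 3 and profiled on Affymetrix Mouse Gene 1.0 ST arrays. One group was K14-DN-Clim, transgenic for a dominant-negative form of Clim, a cofactor that binds LIM-domain transcription factors, under a keratin 14 promoter (3 arrays). The other group was wild-type (WT) littermates (3 arrays). The K14 promoter is active in basal cells of stratified epithelia, whereas the RNA came from the entire cornea with its stroma and endothelium. The labels state no strain, nor whether RNA on an array came from a single pup or several. The p-values therefore rest on the variation among these 6 RNA samples, part of which may be technical. In such bulk RNA, more cycling cells and more RNA per cycling cell cannot be told apart, and neither can fewer cells of a type and less RNA per cell.

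Cells copy their DNA in S phase and separate the copies in mitosis. Before S phase the Mcm2 to Mcm7 proteins are loaded on DNA as the core of the replicative helicase, and cyclin E and the E2F transcription factors turn on the replication genes. Later, FoxM1 and the MuvB complexes act on promoters that carry a cell cycle homology region (CHR), and their targets include the kinases, kinesins and checkpoint proteins of mitosis. In the cornea, proliferation takes place mainly in the basal epithelium, and in young pups the stroma also holds dividing keratocytes.

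To show the letters that the replication and mitosis genes have in front of them, promoter windows were read from RefSeq for mouse build GRCm38.p6, from 250 bases before to 50 bases after each transcription start. The table held a window for 30 of the 36 genes, 11 of S phase and 19 of mitosis, with Ccnb1 among the latter. Mcm4, Ccne2, Ccna2, Foxm1, Aurkb and Tpx2 were not in it. Below are the 160 bases just before the start of 4 mitotic genes and 2 S phase genes, each on the strand of its gene. Plk1, Kif11 and Cdc20 are among the 8 mitotic genes with the smallest unadjusted p in the comparison below, Cdk1 carries all 3 motifs, and Mcm5 and Mcm6 carry E2F letters. Capitals mark the letters of 3 motifs on either strand: E2F (TTTCCCGC, TTTGGCGC, TTTCGCGC or TTTGCCGC), CHR (TTTGAA) and the CCAAT box (CCAAT). In Mcm5 and Mcm6 an E2F match on each strand overlaps the other, which gives the longer run of capitals.
Plk1, chr7:122159275-122159434, plus strand: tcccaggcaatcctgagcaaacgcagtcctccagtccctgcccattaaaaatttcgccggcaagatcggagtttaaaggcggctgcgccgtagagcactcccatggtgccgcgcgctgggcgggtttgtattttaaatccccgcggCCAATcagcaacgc
Kif11, chr19:37376222-37376381, plus strand: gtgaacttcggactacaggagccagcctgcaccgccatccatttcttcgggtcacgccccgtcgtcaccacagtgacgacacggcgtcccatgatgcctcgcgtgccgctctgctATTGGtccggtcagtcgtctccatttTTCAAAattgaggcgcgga
Cdk1, chr10:69352913-69353072, minus strand: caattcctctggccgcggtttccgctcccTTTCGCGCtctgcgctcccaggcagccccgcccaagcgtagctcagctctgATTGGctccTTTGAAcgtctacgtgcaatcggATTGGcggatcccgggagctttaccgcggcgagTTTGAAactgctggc
Cdc20, chr4:118437344-118437503, minus strand: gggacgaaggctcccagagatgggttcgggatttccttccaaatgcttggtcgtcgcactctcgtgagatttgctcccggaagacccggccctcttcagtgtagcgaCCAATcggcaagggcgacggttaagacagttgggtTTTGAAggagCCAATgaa
Mcm5, chr8:75109349-75109508, plus strand: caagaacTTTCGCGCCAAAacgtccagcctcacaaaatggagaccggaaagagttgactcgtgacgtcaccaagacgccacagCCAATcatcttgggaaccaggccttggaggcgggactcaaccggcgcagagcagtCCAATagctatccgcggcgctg
Mcm6, chr1:128359706-128359865, minus strand: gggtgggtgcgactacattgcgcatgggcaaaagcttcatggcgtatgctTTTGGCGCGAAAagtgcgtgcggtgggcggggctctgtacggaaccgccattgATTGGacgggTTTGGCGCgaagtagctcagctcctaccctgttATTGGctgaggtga

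The letters of both classes differed. E2F letters were in the windows of 5 of 11 S phase genes (45.5%: Mcm3, Mcm5, Mcm6, Mcm7 and E2f2) and of 1 of 19 mitotic genes (5.26%: Cdk1), against 2.6% of all 27025 genes in the table and 3.29% of its protein-coding genes. CHR letters showed the other order, in 14 of 19 mitotic genes (73.7%) and 2 of 11 S phase genes (18.2%: Mcm2 and E2f2), against 20.2% of all genes and 18.5% of protein-coding genes. CCAAT boxes were in 16 of 19 mitotic genes (84.2%) and 8 of 11 S phase genes (72.7%), against 41.1% of all genes. CHR and CCAAT letters came together in 13 of 19 mitotic genes (68.4%) and in 7.97% of all genes. The CHR letters of Plk1 lie 31 bases after its start and so outside the printed stretch, while those of Cdc20 and Kif11 start 18 and 19 bases before it. A gene with more than 1 window was counted when any of them held the letters, no test was made, and a match is a description of these letters, not a binding site.

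**Figure D1:**
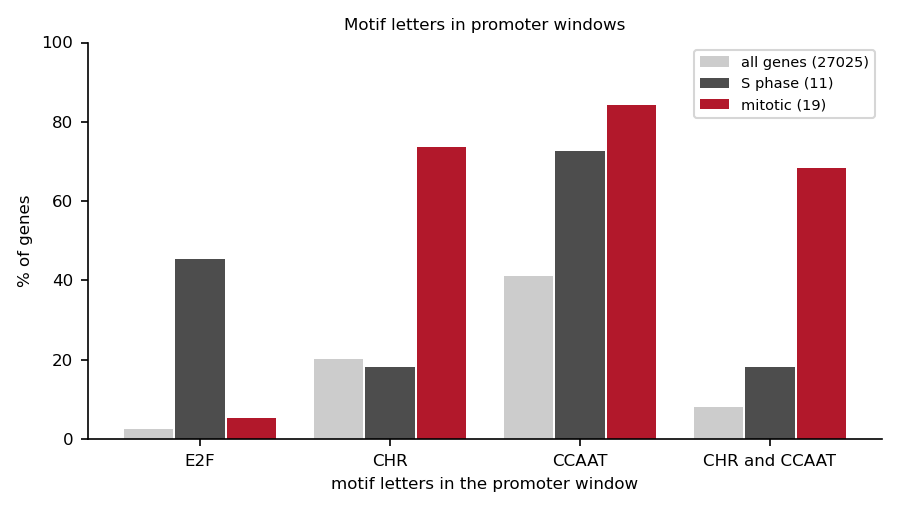
Percent of genes with the E2F, CHR and CCAAT letters in at least 1 promoter window of 300 bases, for 11 S phase genes, 19 mitotic genes and all 27025 genes of the table. E2F letters are found for 45.5% of the S phase genes and CHR letters for 73.7% of the mitotic genes.

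Values are log2(intensity + 16) throughout, and a difference is DN-Clim minus WT on that scale. The arrays carried corneal transcripts: Krt12, the keratin of corneal epithelium, lay between 11.04 and 11.95, and Kera, the stromal proteoglycan keratocan, between 11.96 and 13.09. The DN-Clim arrays did not form 1 group. Over all tested probe sets DN-Clim 3 correlated at 0.928 with DN-Clim 1 and 0.900 with DN-Clim 2, and at 0.949 to 0.962 with the WT arrays. DN-Clim 1 and 2 correlated at 0.964 with each other. With the WT arrays DN-Clim 1 correlated at 0.944 to 0.965 and DN-Clim 2 at 0.918 to 0.957, both highest with WT 3. These are correlations across probe sets, which are not independent replicates. DN-Clim 1 and 2 also read high for lens transcripts. Whether these came from lens tissue or from cells of the cornea was not tested. Cryaa, a lens crystallin, was at 14.25 and 13.96 on DN-Clim 1 and 2, at 8.86 on DN-Clim 3 and at 8.85 to 9.59 on WT arrays. Crygs, a crystallin of lens fibres, was at 13.96 and 14.10 against 7.47 and 8.37 to 8.90. On each of DN-Clim 1 and 2, 14 of 17 lens fibre genes were above all WT arrays, against 23.1% and 27.2% of all probe sets. Not all were high: without DN-Clim 3, Lgsn, Gja3 and Hsf4 differed from WT by -0.06, -0.02 and -0.08. Y-linked genes also varied, with a mean of 6.54 on DN-Clim 1, 8.52 on DN-Clim 2 and 4.73 to 5.67 on the other 4 arrays, while Xist lay between 12.11 and 12.60 on all 6. Class medians and the genes with the smallest p are therefore given below also without DN-Clim 3 and for DN-Clim 3 by itself. Leaving it out keeps the 2 DN-Clim arrays with high lens transcripts.

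The mitotic genes read higher in DN-Clim corneas than in WT ones, on 2 of the 3 arrays, and no gene of the list passed the test over all 6 arrays. The difference was above 0 for 33 of 35 genes, all 22 mitotic and 11 of 13 S phase genes, where 42.8% of all probe sets were above 0. That share became 53.8% after quantile normalization and 53% after median centring, with 33 of the 35 genes above 0 in each. The median difference was 0.41 over the mitotic genes and 0.095 over the S phase genes, beside -0.04 over all tested probe sets. The largest were Plk1 (1.76-fold), Kif11 (1.60-fold), Nusap1 (1.60-fold) and Cenpf (1.58-fold).

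With limma none of the 35 genes had an adjusted p under 0.05, in either direction, and the smallest was 0.693 for Plk1. The same fit called 0% of all probe sets higher and 0.0128% lower, so the background of calls was itself close to nothing. At an unadjusted p under 0.05, 6 of the 35 genes were higher, namely Plk1, Cenpf, Kif11, Prc1, Ccna2 and Nusap1, against 1.45% of all probe sets. All of these are mitotic. None of the 35 was lower at that p, against 4.49% of all probe sets. The DN-Clim arrays all lay above all WT arrays for 9 genes (25.7% of 35), which were Tyms and 8 of the mitotic genes, against 3.2% of all probe sets. No gene of the list had all DN-Clim arrays below all WT arrays, against 6.95% of all probe sets.

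**Figure D2:**
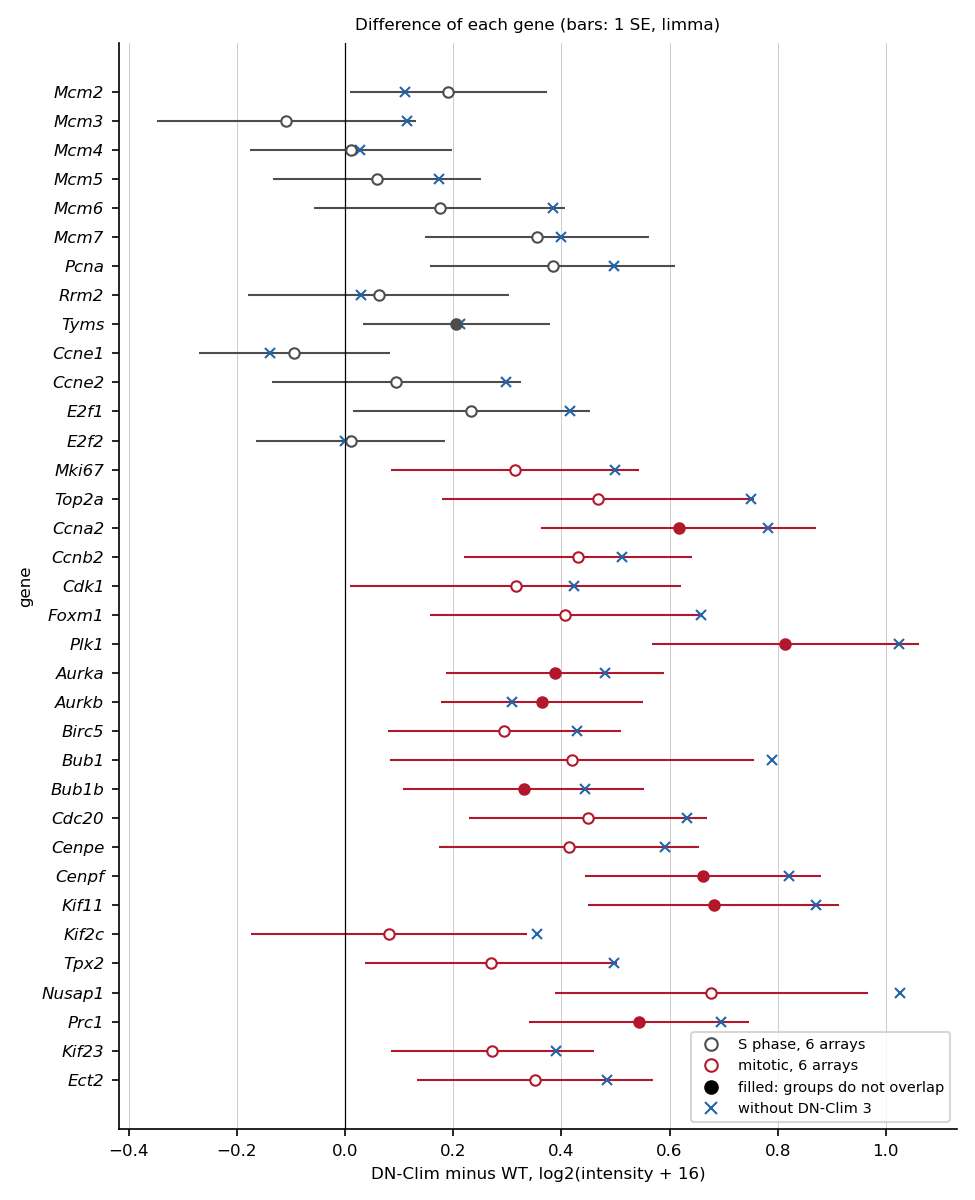
Difference between DN-Clim and WT, log2(intensity + 16), with its standard error from limma, for the 13 S phase and 22 mitotic genes (n = 3 arrays per group). All 22 mitotic genes lie above 0, Plk1 highest at 0.81, and S phase genes lie between -0.11 and 0.38.

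Array by array, the higher values were on DN-Clim 1 and DN-Clim 2. On DN-Clim 1, 27 of 35 genes were above all WT arrays (21 mitotic, all but Cdk1, and 6 of S phase), where 23.1% of all probe sets were. On DN-Clim 2, 32 of 35 were (all 22 mitotic and 10 of S phase), where 27.2% of all probe sets were. On DN-Clim 3, 12 of 35 were (34.3%: 8 mitotic and 4 of S phase), where 39.8% of all probe sets were, so the share on that array was not above its background. DN-Clim 2 was the brightest of the 6 arrays for 19 of the 22 mitotic genes and 8 of the 13 S phase genes, and for 21.6% of all probe sets.

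**Figure D3:**
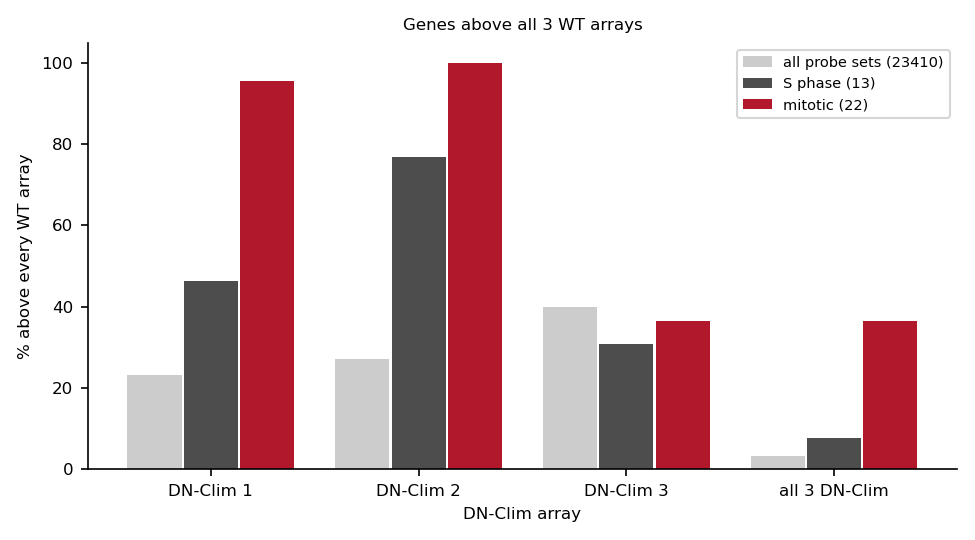
Percent of S phase genes, mitotic genes and all tested probe sets that lie above all 3 WT arrays, for each DN-Clim array and, at the right, for all 3 of them at once. Mitotic genes reach 95.5% on DN-Clim 1 and 100% on DN-Clim 2 and 36.4% on DN-Clim 3, where all probe sets stand at 39.8%.

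Each array was also summarised by the median over a class of its value minus the WT mean, with a WT array set against the mean of the other WT arrays. For the mitotic genes the medians were -0.12, 0.08 and 0.08 on WT 1 to 3 and 0.44, 0.75 and 0.08 on DN-Clim 1 to 3. For the S phase genes they were -0.10, 0.06 and 0.11 on the WT arrays and 0.13, 0.32 and -0.01 on the DN-Clim arrays. DN-Clim 1 and 2 were thus outside the WT range in both classes, by little for the S phase genes on DN-Clim 1, and DN-Clim 3 was level with WT 2 and 3 for the mitotic genes. The mitotic median exceeded the S phase median by 0.31 and 0.43 on DN-Clim 1 and 2 and by 0.09 on DN-Clim 3, while on WT arrays both medians were within 0.03 of each other. The median over all probe sets was -0.07, -0.16 and 0.06 on DN-Clim 1 to 3. With every array shifted to a common median over the tested probe sets, the mitotic medians became 0.50, 0.91 and 0.01 and the S phase medians 0.19, 0.48 and -0.08.

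Lens fibre and retinal neuron transcripts were highest on the same 2 arrays. For 17 lens fibre genes, 16 of them above 0 on average, the array medians were -0.19 to 0.26 on WT arrays and 1.27, 2.25 and -0.04 on DN-Clim 1 to 3, and their summed intensity (as log2) was 12.3 to 12.9, then 16.7, 16.7 and 12.3. For 8 genes of retinal neurons the medians were -0.58 to 0.56 and 1.30, 1.83 and 0.14, with sums of 11.1 to 12.6 and 13.3, 13.8 and 11.9. WT 3 was the highest WT array in both measures and stood above DN-Clim 3. For 6 genes of retinal progenitors, a dividing cell type, the medians were -0.30 to 0.48 and 0.45, 0.32 and 0.24, so that no DN-Clim array exceeded WT 3, though the sums were 11.1 to 11.5 and 11.8, 12.3 and 11.5. These genes were split. Without DN-Clim 3, Six6, Lhx2 and Rax differed from WT by 1.83, 1.53 and 0.61, and Fgf15, Hes5 and Atoh7 by 0.15, -0.06 and -0.12. For 6 genes of the lens epithelium, the dividing layer of the lens, the medians were -0.22 to 0.14 and 0.04, -0.13 and 0.17, with sums of 10.8 to 11.3 and 11.7, 12.1 and 11.2. Here too the genes were split. Without DN-Clim 3, Mab21l1 and Prox1 differed by 2.06 and 1.63, and Maf, Pitx3, Foxe3 and Sox1 by -0.045, -0.13, -0.19 and -0.24.

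Corneal markers moved the other way on DN-Clim 1 and 2, by little for the epithelium on DN-Clim 1. The 12 epithelial markers had medians of 0.18, 0.04 and -0.19 on WT 1 to 3 and -0.23, -0.71 and 0.11 on DN-Clim 1 to 3. The 10 keratocyte markers had medians of 0.14, 0.17 and -0.48 on the WT arrays and -1.02, -1.88 and 0.01 on the DN-Clim arrays. Krt14, the basal keratin whose promoter drives the transgene, read 12.26, 12.08 and 11.99 on WT and 11.30, 11.31 and 11.83 on DN-Clim arrays, and Lum, the stromal proteoglycan lumican, read 12.58, 12.80 and 12.90 against 11.69, 10.85 and 12.74. Medians of 9 macrophage markers were -0.51, -0.46 and -0.69, and those of 8 vascular markers -0.98, -1.50 and -0.72, below every WT array on all 3 DN-Clim arrays. The 4 measured erythroid markers had medians of -0.06, -0.31 and 0.25. The part of lens, retinal and corneal cell content in the level of the cell cycle genes was not tested.

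**Figure D4:**
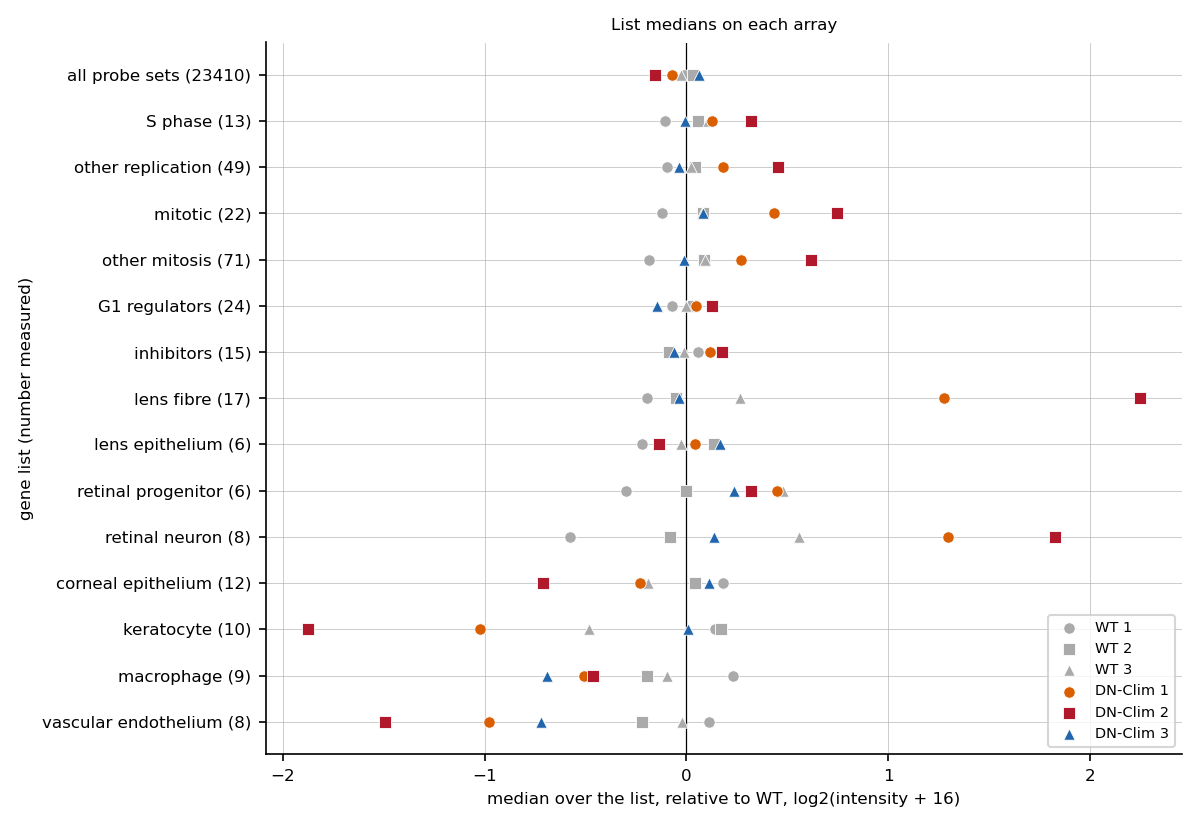
Median over the S phase, mitotic and marker lists of each array's log2(intensity + 16) minus the WT mean (for a WT array, minus the mean of the other WT arrays), for 6 arrays. The mitotic median (0.44 and 0.75) and the lens fibre median (1.27 and 2.25) are high on DN-Clim 1 and 2, and both are near the WT arrays on DN-Clim 3 (0.08 and -0.04).

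When DN-Clim 3 was left out, 2 of the 35 genes passed limma's test, beside 0.547% of all probe sets called higher. Plk1 rose by 1.02 (SE 0.205, adjusted p = 0.0498) and Nusap1 by 1.03 (SE 0.165, adjusted p = 0.0251). Both of the remaining DN-Clim arrays are those with high lens transcripts. DN-Clim 3 was set apart because of values on these same arrays, so the fit without it is no independent support. The medians of that fit were 0.55 over the mitotic genes and 0.17 over the S phase genes, beside -0.12 over all probe sets. With DN-Clim 3 alone against WT, 21 of 35 differences were above 0 (60%: 6 of S phase and 15 mitotic), where 56.2% of all probe sets were, so the count was near its background. No gene of the list passed that test, which called 0.0256% of all probe sets higher and 0.312% lower. The class medians were -0.01 for S phase and 0.08 for mitosis, beside 0.06 over all probe sets.

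Plk1 encodes polo-like kinase 1, which drives mitotic entry, centrosome maturation and spindle assembly. Its probe set read 8.88, 8.97 and 8.69 on the WT arrays and 10.15, 9.58 and 9.23 on the DN-Clim arrays. All DN-Clim arrays were above all WT arrays, with DN-Clim 1 highest. The difference was 0.81 (SE 0.247, adjusted p = 0.693), and DN-Clim 3 alone was 0.39 above the WT mean.

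The 3 mitotic kinases and survivin had a median difference of 0.38, or 0.45 without DN-Clim 3 and 0.30 on DN-Clim 3. Among the other kinases, Aurka, whose kinase acts at centrosomes and spindle poles, read 8.96, 8.86 and 8.81 for WT and 9.60, 9.11 and 9.08 for DN-Clim. Aurkb, the catalytic subunit of the chromosomal passenger complex, read 8.65, 8.70 and 8.70 against 8.78, 9.20 and 9.16. The groups were separate for both genes, by 0.39 (SE 0.202, adjusted p = 0.912) for Aurka and 0.36 (SE 0.187, adjusted p = 0.898) for Aurkb. Aurkb was nearly as high on DN-Clim 3 as on DN-Clim 2, and DN-Clim 1 was the lowest of the group. Birc5, which encodes survivin, a partner of Aurora B in that complex, read 10.16, 10.36 and 10.40 against 10.49, 10.99 and 10.33, with DN-Clim 3 inside the WT range.

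The kinetochore and motor genes held the largest class median, 0.54 over Cenpe, Cenpf, Kif11 and Kif2c, which was 0.71 without DN-Clim 3 and 0.18 on DN-Clim 3. Kif11 encodes the motor Eg5, which pushes the spindle poles apart, and read 9.28, 9.44 and 9.62 for WT and 10.09, 10.54 and 9.75 for DN-Clim. Cenpf, a large protein of the outer kinetochore, read 9.49, 9.77 and 9.78 against 10.31, 10.70 and 10.02. Both genes had separate groups with DN-Clim 2 highest, at a difference of 0.68 (SE 0.232, adjusted p = 0.745) for Kif11 and 0.66 (SE 0.218, adjusted p = 0.723) for Cenpf. Without DN-Clim 3 these became 0.87 and 0.82, with adjusted p-values of 0.0673 and 0.0697 from limma, and on DN-Clim 3 they were 0.31 and 0.34. Cenpe, a kinesin that moves chromosomes to the spindle equator, read 9.48, 9.67 and 9.54 against 9.83, 10.48 and 9.62. Kif2c, a kinesin that takes microtubules apart at centromeres, read 7.80, 8.11 and 8.13 against 8.42, 8.31 and 7.55. It had the smallest difference of the mitotic genes, 0.08, since DN-Clim 3 was below every WT array.

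Spindle and midzone genes gave a median difference of 0.35, or 0.50 without DN-Clim 3 and 0.04 on DN-Clim 3. Nusap1, a microtubule-binding protein of the spindle, read 9.40, 9.49 and 9.55 for WT and 10.35, 10.66 and 9.46 for DN-Clim. DN-Clim 1 and 2 stood far above the WT range and DN-Clim 3 inside it, so the difference of 0.68 had an SE of 0.290 (adjusted p = 0.833), and on DN-Clim 3 it was -0.02. Prc1, which bundles antiparallel microtubules in the midzone, read 9.29, 9.49 and 9.25 against 9.94, 10.15 and 9.58. Its groups were separate, at 0.54 (SE 0.203, adjusted p = 0.788), with 0.70 without DN-Clim 3 and 0.24 on it. Tpx2, the activator of Aurora A on the spindle, read 9.19, 9.06 and 9.21 against 9.49, 9.81 and 8.97. Kif23, a kinesin of the midzone, read 9.67, 9.75 and 9.51 against 10.00, 10.06 and 9.68. Ect2, the exchange factor that starts the cleavage furrow, read 8.79, 8.50 and 8.57 against 8.85, 9.36 and 8.70. For these 3 genes DN-Clim 3 was inside or below the WT range.

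The genes of mitotic entry had a median difference of 0.42, or 0.58 without DN-Clim 3 and 0.19 on DN-Clim 3. Ccna2, the cyclin A of somatic cells, acts in S phase and G2 and read 10.09, 10.31 and 10.42 for WT and 10.66, 11.44 and 10.56 for DN-Clim. Its groups were separate, at 0.62 (SE 0.255, adjusted p = 0.821), with DN-Clim 2 well above the others. Without DN-Clim 3 it was 0.78, and on DN-Clim 3 it was 0.29. Ccnb2, a B-type cyclin, read 10.50, 9.96 and 9.95 against 10.63, 10.67 and 10.41, a difference of 0.43 (SE 0.211, adjusted p = 0.891) in which WT 1 exceeded DN-Clim 3. The difference was 0.51 without DN-Clim 3 and 0.27 on it. Cdk1, the kinase that both cyclins activate, read 9.36, 9.49 and 9.68 against 9.30, 10.56 and 9.61. Only DN-Clim 2 was above the WT arrays for Cdk1, and without it the difference of 0.32 became -0.05. Foxm1, the transcription factor of many G2 and mitosis genes, read 8.66, 8.92 and 8.52 against 9.25, 9.47 and 8.61.

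The 3 checkpoint and anaphase genes gave a median of 0.42, or 0.63 without DN-Clim 3 and 0.08 on DN-Clim 3. Cdc20, the activator of the anaphase-promoting complex, read 9.07, 8.96 and 8.68 for WT and 9.46, 9.61 and 8.98 for DN-Clim, at 0.45 (SE 0.220, adjusted p = 0.891), which was 0.63 without DN-Clim 3 and 0.08 on it. Bub1, a kinase of the spindle checkpoint, read 8.61, 9.06 and 9.12 against 9.39, 10.04 and 8.61. Bub1b, which encodes the checkpoint protein BubR1, read 8.79, 9.03 and 9.03 against 9.08, 9.71 and 9.06. Its groups were separate by a narrow margin, while DN-Clim 3 equalled the lowest WT array for Bub1.

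Mki67 and Top2a mark cycling cells at large. Mki67, the source of the Ki-67 antigen, read 10.25, 10.53 and 10.46 for WT and 10.69, 11.14 and 10.36 for DN-Clim. Top2a, the topoisomerase that untangles replicated chromosomes, read 10.42, 10.73 and 11.02 against 11.23, 11.72 and 10.63 on its brighter probe set. On both genes DN-Clim 3 was inside the WT range, and the differences were 0.31 and 0.47. A dimmer Top2a probe set went the other way, at 7.39, 7.37 and 7.59 against 6.89, 7.33 and 6.48, a difference of -0.55 (SE 0.234, adjusted p = 0.828) with all DN-Clim arrays below all WT arrays. The direction of Top2a therefore depends on the probe set, and with both averaged it was -0.04.

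**Figure D5:**
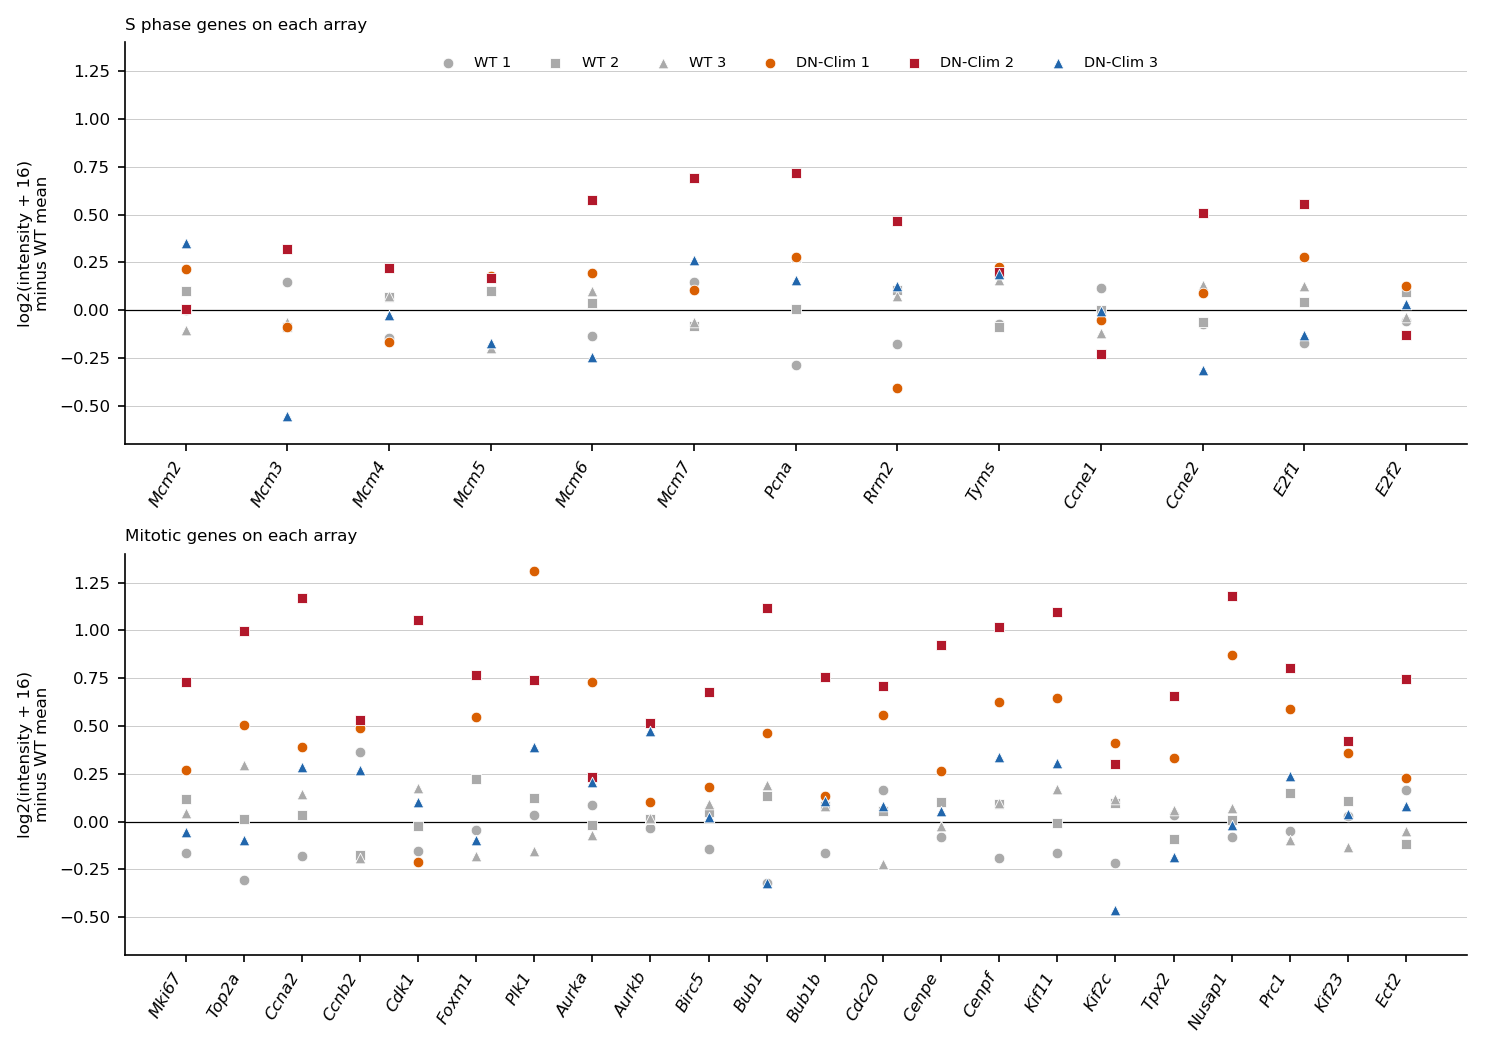
Each gene's log2(intensity + 16) minus its WT mean on 6 arrays, with S phase and mitotic genes apart. The mitotic genes are high on DN-Clim 1 and 2 and spread around 0 on DN-Clim 3, where they run from -0.46 to 0.48.

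Among S phase genes, Pcna and Mcm7 had the largest differences, and neither passed the test. Pcna encodes the sliding clamp of DNA polymerases and read 11.41, 11.71 and 11.98 for WT and 11.98, 12.42 and 11.86 for DN-Clim. The difference was 0.38 (SE 0.227, adjusted p = 0.958), the groups overlapped, and a second Pcna probe set gave 0.39. Without DN-Clim 3 it was 0.50, and on DN-Clim 3 it was 0.16. The other genes of this role supply nucleotides. Tyms, thymidylate synthase, read 10.02, 10.00 and 10.24 against 10.31, 10.29 and 10.28, the only S phase gene with separate groups, at 0.21 (SE 0.173, adjusted p = 0.999), with the same 0.21 without DN-Clim 3 and 0.19 on it. Rrm2, the small subunit of ribonucleotide reductase, read 9.20, 9.48 and 9.45 against 8.97, 9.84 and 9.50, where the DN-Clim arrays lay on both sides of WT.

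The 6 helicase subunits did not move as 1 block, although they work as 1 complex. Mcm7 read 9.97, 9.74 and 9.76 for WT and 9.93, 10.52 and 10.09 for DN-Clim, at 0.35 (SE 0.207, adjusted p = 0.954), which was 0.40 without DN-Clim 3 and 0.26 on it. Mcm6 read 9.71, 9.88 and 9.94 against 10.04, 10.42 and 9.60, and Mcm2 read 8.65, 8.75 and 8.55 against 8.87, 8.66 and 9.00. For both of these the groups overlapped, with a different DN-Clim array highest in each. Mcm3 read 8.87, 8.63 and 8.66 against 8.63, 9.04 and 8.17, and its difference was -0.11. Mcm4 read 9.25, 9.47 and 9.47 against 9.23, 9.62 and 9.37, and Mcm5 read 8.75, 8.75 and 8.46 against 8.83, 8.83 and 8.48. Their differences were 0.01 and 0.06, smaller than the spread of either group. DN-Clim 3 was the lowest array for Mcm3 and Mcm6 and the highest for Mcm2.

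The regulators of S phase entry had a median difference of 0.05, or 0.15 without DN-Clim 3 and -0.07 on DN-Clim 3. E2f1, an activator of replication genes, read 8.74, 8.95 and 9.04 for WT and 9.18, 9.47 and 8.78 for DN-Clim, at 0.23 (SE 0.219, adjusted p = 0.999), which was 0.42 without DN-Clim 3 and -0.13 on it. E2f2, a related activator, read 6.88, 7.03 and 6.90 against 7.06, 6.81 and 6.97. Ccne1 and Ccne2 encode the E cyclins, which activate Cdk2. Ccne1 read 8.51, 8.39 and 8.27 against 8.34, 8.16 and 8.39, a difference of -0.09. Ccne2 read 8.67, 8.68 and 8.87 against 8.83, 9.24 and 8.43, with DN-Clim 3 the lowest array and DN-Clim 2 the highest.

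Wider lists of cell cycle genes showed the same order of arrays. Of 49 other replication genes, 42 had a difference above 0, against 42.8% of all probe sets, and none passed the test. The median difference was 0.20, or 0.37 without DN-Clim 3, with array medians of 0.18, 0.45 and -0.04 on DN-Clim 1 to 3. Ticrr, an origin firing factor, differed by 0.61, Prim1, the catalytic primase subunit, by 0.69, and Pold3, a subunit of DNA polymerase delta, by 0.49. Of 71 other mitosis genes, 66 were above 0 and none passed, with a median of 0.28, or 0.45 without DN-Clim 3, and array medians of 0.27, 0.62 and -0.01. Ube2c, the ubiquitin-conjugating enzyme of the anaphase-promoting complex, differed by 0.55 and the kinesins Kif20b and Kif14 by 0.57 and 0.49. Groups were separate, with DN-Clim higher, for 3 of the 49 and 9 of the 71, against 3.2% of all probe sets, so for the 49 the count was close to the background. These lists share their arrays with the 35 genes and are no independent support.

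Genes that govern entry into and exit from the cycle had differences of both signs. Of 24 G1 cyclins, kinases, E2F and Rb family genes, 14 were above 0, against 42.8% of all probe sets, and none passed, with a median difference of 0.08, or 0.12 without DN-Clim 3. Myc, a transcription factor that promotes growth, read 9.29, 9.21 and 8.99 for WT and 8.86, 8.50 and 9.01 for DN-Clim, a difference of -0.38. Ccnd2, a D-type cyclin, differed by -0.52, and E2f4, an E2F that mostly represses, by 0.34. Of 15 measured inhibitors of cell cycle progression, 9 were above 0 and none passed, with a median of 0.08, or 0.15 without DN-Clim 3. Cdkn2c, the Cdk4 and Cdk6 inhibitor p18, had separate groups at 8.54, 8.70 and 8.51 against 9.23, 9.65 and 9.15, a difference of 0.76 (SE 0.197, adjusted p = 0.612). Cdkn2b, the related inhibitor p15, was separate the other way at 9.58, 9.28 and 9.20 against 8.73, 8.75 and 8.89, a difference of -0.56 (SE 0.184, adjusted p = 0.721). DN-Clim 3 went with DN-Clim 1 and 2 for both inhibitors.

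Without DN-Clim 3, 2 of the 15 inhibitors passed the test as higher, where 0.547% of all probe sets did. Btg2, an antiproliferative gene, read 9.29, 9.17 and 9.30 for WT and 10.69, 10.80 and 9.25 for DN-Clim, and rose by 1.49 on DN-Clim 1 and 2 (SE 0.151, adjusted p = 0.00533). Cdkn1b, the Cdk inhibitor p27, read 8.67, 8.92 and 9.54 against 10.75, 11.09 and 8.91, and rose by 1.88 on those arrays (SE 0.261, adjusted p = 0.0153). On DN-Clim 3 both genes were inside the WT range. Cdkn1b had 2 probe sets, of which only the brighter was read here. The arrays with the highest mitotic medians thus also had the highest levels of these 2 inhibitors. Those arrays also had the highest lens fibre and retinal neuron medians. Retinal neuron transcripts were not confined to them, since WT 3 had a median of 0.56 for that list.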

How the data were processed

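RNA of whole corneas from 3 WT and 3 DN-Clim pups or pools was hybridised to 1 array each. The deposited values are probe set intensities on a linear scale, made with Affymetrix Expression Console 1.1 and PLIER per the submitters' processing notes. PLIER combines the probes of a probe set. How PLIER was set (its background correction, its scaling across arrays, an added constant) is not given in the sources used here. Per the labels' protocols, cDNA was amplified and biotin-labelled with NuGEN kits, which can change the level of a transcript relative to others.

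Intensities were taken as log2(intensity + 16), which understates fold changes of dim genes. Over all probe sets the array medians were 230.8 to 280.9 as intensities. Over the tested probe sets the array medians differed by 0.237 on the log2 scale. That was under the limit of 0.5 for centring, so the values were not normalized again. Of 35557 probe sets, a platform table paired 23410 with a gene, 21789 with 1 symbol and 1621 with several. Only the former name a gene, and the other 12147 are unnamed here and were not tested. DN-Clim was compared with WT by limma 3.58.1 (lmFit and eBayes) in R 4.3.3, adjusted by Benjamini-Hochberg over the 23410 probe sets, threshold 0.05. All adjusted p-values come from it. The number of arrays limits the precision. The fit was repeated under 17 alternatives.

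The members and lists were chosen with earlier results of these data known. All members are named, by role, with full statistics for the 4 S phase and 8 mitotic genes with the smallest unadjusted p. Of each wider list the 3 genes with the smallest p are named. Statistics of Aurka, Aurkb and the dimmer Top2a probe set, and the names Btg2 and Cdkn1b, which passed without DN-Clim 3, were added after their values were seen.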

Additional observations from a re-analysis of the deposited data

How the results depend on the processing

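The probe sets past the threshold, 3 in the fit over all arrays, numbered 1 after quantile normalization, 0 with all probe sets of the table tested, 5 with a trended robust prior, 2059 with array weights and 79 with DN-Clim 3 alone, and 0 to 483 when 1 array was left out (483 without DN-Clim 3). Of the 35 cell cycle genes, 7 passed with array weights (Plk1, Aurka, Cdc20, Cenpf, Kif11, Nusap1 and Prc1). In that fit 2059 of the 23410 probe sets passed, counted in both directions. Its weights were 3.06 for DN-Clim 1 and 0.385 and 0.199 for DN-Clim 2 and 3. With 1 array left out 0 to 2 of the 35 genes passed (2 without DN-Clim 3). Then 27 to 33 of their differences were above 0, beside 36% to 52.3% of all probe sets. With fewer arrays more groups separate by construction: 10 to 25 of the genes did, beside 4.96% to 13.8% of all probe sets (25 and 13.8% without DN-Clim 3). The mitotic median ran from 0.21 (without DN-Clim 2) to 0.55 (without DN-Clim 3) and the S phase median from 0.0028 to 0.17. With DN-Clim 3 alone 21 differences were above 0, and the medians were 0.083 (mitotic) and -0.0055 (S phase), beside 56.2% above 0 and a median of 0.061 over all probe sets.

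Same-numbered arrays did not deviate together from their group means (correlations of 0.02, -0.21 and -0.44 over probe sets). With 3 arrays per group, such correlations cannot show whether the numbers pair the samples. No array correlated best with the array of its own number in the other group. With a replicate block 9 probe sets and 0 of the 35 genes passed, and the medians stayed at 0.41 and 0.095.

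Single genes gave 594 values under the alternatives, of which 552 had the sign and the call of the fit over all arrays. The sign turned with array weights for Mcm4 (-0.14), Rrm2 (-0.32) and Cdk1 (-0.058), and with both probe sets averaged for Top2a (-0.042). With DN-Clim 3 alone it turned for Mcm4 (-0.024), Mcm5 (-0.17), Mcm6 (-0.25), Ccne2 (-0.31), E2f1 (-0.13), Mki67 (-0.056), Top2a (-0.097), Foxm1 (-0.096), Bub1 (-0.32), Kif2c (-0.46), Tpx2 (-0.19) and Nusap1 (-0.0196). With 1 array left out it turned at least once for Mcm3 (-0.32 to 0.11), Mcm4 (-0.095 to 0.099), Mcm5 (-0.039 to 0.17), Mcm6 (-0.026 to 0.38), Rrm2 (-0.14 to 0.30), Ccne2 (-0.11 to 0.30), E2f2 (-0.047 to 0.0797), Cdk1 (-0.054 to 0.58) and Kif2c (-0.083 to 0.35). The causes were not tested.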
